A study of Danio rerio with 2 samples.

Results

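Cells were sorted from zebrafish embryos for a green reporter driven by mitfa regulatory sequence and a red reporter driven by crestin regulatory sequence. A small set of them carried far more EGFP transcript than most of the other cells. They are called EGFP-high cells here. A cell belonged to the set when EGFP made up over 0.3% of its unique molecular identifiers (UMIs, counts of captured transcript molecules), gch2 made up at most 2%, and dct, pmela, tyrp1a and tyrp1b together made up at most 1%. gch2 encodes the entry enzyme of pteridine synthesis in yellow pigment cells, and the other genes serve melanin synthesis in black pigment cells. The rule found 76 of 1347 cells, 61 of 999 in the untreated library and 15 of 348 in the library labelled ErbBi. All embryos were of the AB (WT) strain at 24 hours post fertilisation. The embryos of one library were untreated and those of the other were given ErbBi, a name taken here to mean a blocker of ErbB receptor signalling. Each treatment had 1 library, so treatment and library cannot be told apart, and whether cells of several embryos were pooled is not stated in the sources used here.

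The neural crest is a migratory embryonic cell population that leaves the dorsal neural tube and forms pigment cells, neurons, glia and part of the head skeleton. mitfa encodes the transcription factor that starts the melanocyte programme, and it is also transcribed in progenitors of other pigment cells. hox genes encode homeobox transcription factors whose combination marks position along the body axis, with high-numbered paralogue groups used towards the tail.

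Values were summed UMIs divided by all UMIs of the same cells and scaled to CPM, the usual depth-scaled count. Intervals are 95% and cover counting error only. Cells are not replicates, so no p-value was made. A gene was counted as higher or lower when its ratio was at least 2-fold with the interval beyond 1.5-fold. It also needed at least 30 UMIs over both sets of cells compared. The EGFP-high cells held 474862 UMIs in the untreated library (median 7030 per cell, range 1742 to 22816) and 40297 in the ErbBi library (median 2376, range 1601 to 6823). The other cells had medians of 7110 and 2739 UMIs, so depth was alike within a library and not between libraries. The 6 cell barcodes that both libraries share included 0 EGFP-high cells, and 0 EGFP-high cells were called as doublets.

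The cells were chosen by their shares of EGFP, gch2 and melanin gene UMIs, so these values are given as a description. EGFP-high cells were 6.11% of the untreated library (4.70 to 7.77) and 4.31% of the ErbBi library (2.43 to 7.01), and these intervals overlap. EGFP took 0.302% of UMIs in the lowest untreated member, 0.573% in the median one and 3.91% in the highest. The ErbBi values were 0.337%, 0.804% and 2.33%. The other cells had a median of 0.0145% in the untreated library and 0% in the ErbBi library, where 192 of 333 had no EGFP UMI. EGFP-high cells held 51.2% of the EGFP UMIs of the untreated library and 51.5% of those of the ErbBi library.

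The cells form a range rather than a separate group. In the untreated library 11 cells within the pigment limits lay between 0.25% and the limit of 0.3%, and 6 members lay between the limit and 0.35%. The ErbBi library had 1 cell on either side. The nearest cell below the limit had 0.299% in the untreated library and 0.2501% in the ErbBi library. The pigment limits removed 19 of 80 untreated cells and 3 of 18 ErbBi cells that were over the EGFP limit. EGFP in these removed cells reached 2.71% in the untreated library and 0.797% in the ErbBi library.

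**Figure D1:**
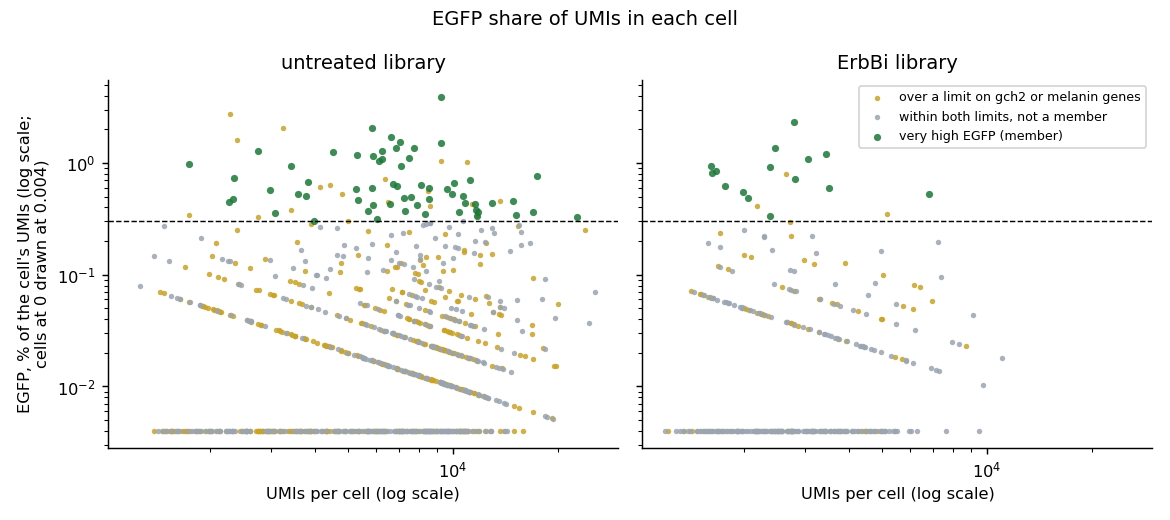
EGFP as a percentage of a cell's UMIs (vertical, log scale, cells without EGFP drawn at 0.004) against UMIs per cell (horizontal, log scale) in the untreated (left) and ErbBi (right) libraries. Each point is a cell, yellow where it is over a pigment limit, and the dashed line is the limit of 0.3%. The 61 and 15 EGFP-high cells (green, called members in the legend) lie above it at low and high depth. So do 19 untreated and 3 ErbBi cells over a pigment limit, with up to 2.71% and 0.797% EGFP. Other untreated cells within the pigment limits reach up to the line.

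There were 3 sets of other cells for comparison. The first was all other cells (938 untreated, 333 ErbBi). The second was the other cells within the same pigment limits (410 and 250). The third, chosen after the values were seen, left the twist1a-led cluster out of the second (329 and 119), and its cells are called other unpigmented cells. That cluster had pdgfra, twist1a and DLX2 (ENSDARG00000079964), genes of crest-derived mesenchyme, among its leading genes and held 0 EGFP-high cells.

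Against all other cells of the untreated library, 77 of 8754 genes were higher (0.88%) and 175 were lower (2%). For ErbBi cells 31 of 4110 were higher (0.754%) and 19 were lower (0.462%). In both libraries 6 of 4096 genes were higher (0.146%) and 10 were lower (0.244%). The rule genes were not counted. Within the pigment limits the percentages higher and lower were 0.79% and 3.55% in the untreated library, 1.64% and 0.804% in the ErbBi library, and 0.209% and 0.598% in both. Against other unpigmented cells they were 0.442% and 3.32% in the untreated library, 1.11% and 1.58% in the ErbBi library, and 0.0588% and 0.882% in both. The 6 higher genes were the mCherry reporter, PAX3 (ENSDARG00000010192), RDH8 (ENSDARG00000028048), slc15a2, id3 and phlda2.

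PAX3, an early transcription factor of neural crest, stood at 150 CPM in untreated EGFP-high cells and 56.0 CPM in all other cells, a ratio of 2.67 (2.04 to 3.45). Its ErbBi ratio was 4.26 (1.74 to 9.06) on 8 UMIs. id3, which encodes an inhibitor of basic helix-loop-helix factors and is a known target of BMP signalling, stood at 893 against 371 CPM in the untreated library and 1067 against 317 CPM in the ErbBi library. Its ratios were 2.41 (2.17 to 2.67) and 3.37 (2.39 to 4.63). slc15a2, a peptide transporter gene, was 2.43 times higher (1.88 to 3.10) in the untreated library and 6.92 times (3.45 to 12.9) in the ErbBi library on 13 UMIs. RDH8, of the retinol dehydrogenase family, had ratios of 3.04 (2.40 to 3.82) and 5.32 (1.996 to 12.2), the second on 7 UMIs. phlda2 had ratios of 2.07 (1.74 to 2.45) and 6.99 (4.55 to 10.5), whose intervals do not overlap, and the difference between libraries was not tested.

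These differences were smaller against other unpigmented cells. There id3 had an untreated ratio of 1.77 (1.58 to 1.98), PAX3 1.51 (1.14 to 1.98), slc15a2 1.51 (1.16 to 1.96) and phlda2 1.55 (1.29 to 1.86). None of these 4 was past 2-fold, while RDH8 was 2.27 times higher (1.75 to 2.92). The mCherry reporter was the only gene higher in both libraries against other unpigmented cells, 1 of 1701 genes (0.0588%). Its levels were 272 CPM in untreated and 323 CPM in ErbBi EGFP-high cells. Its untreated ratio was 2.20 in this comparison and 2.81 (2.31 to 3.40) against all other cells. The cells were sorted on both reporters, so the sort gate bears on these levels.

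Posterior hox genes stood high in both libraries. Of the 23 rows of paralogue groups 9 to 13, 9 had enough UMIs in the untreated library. Against all other cells 8 of the 9 were higher, beside 0.88% of all genes. Their median log2 ratio was 2.46 against -0.02 for all genes compared. The minimum of 30 UMIs takes EGFP-high and other cells together, so rows high in EGFP-high cells reach it more easily. The count of 8 is therefore a description. One of the 9, hoxd9a, is among the markers given for these cells, so the list is not independent of earlier views of these data. The summed level of the 23 rows was 531 CPM in untreated EGFP-high cells and 105 CPM in all other cells, a ratio of 5.05 (4.36 to 5.84). In the ErbBi library it was 422 and 78.3 CPM, a ratio of 5.39 (2.998 to 9.15) on 17 UMIs, and no single row had 30 UMIs there. Against other unpigmented cells the summed ratio was 2.55 (2.18 to 2.98) in the untreated and 2.73 (1.48 to 4.80) in the ErbBi library. The summed level was therefore higher in both libraries against each of these sets.

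hoxd9a stood at 133 CPM (63 UMIs, in 33 of 61 cells) in untreated EGFP-high cells and at 19.2 CPM in all other cells, a ratio of 6.91 (5.03 to 9.40). hoxd10a had a ratio of 7.48 (4.19 to 13), HOXA11 (ENSDARG00000007009) 5.28 (3.35 to 8.12), hoxa9b 5.51 (2.95 to 9.83) and hoxc9a 4.45 (2.55 to 7.46). hoxa10b (23 against 27 UMIs) had a ratio of 12.1 (6.65 to 22.0) and hoxd11a (16 against 15 UMIs) one of 15.2 (7.04 to 33.0). The ratio of hoxb9a was 2.45 (1.58 to 3.67) against all other cells and 1.16 against other unpigmented cells. The remaining row compared in the untreated library, not named here, had a ratio above 1 that fell short of the size rule. hoxc10a, 1 of the rows short of the minimum, had 29 UMIs and stood at 16.8 against 3.10 CPM. ErbBi members had 3 hoxd9a UMIs, 74.4 against 6.52 CPM, and hoxa10b and hoxd11a had 0.

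The posterior groups differed in level, and groups 12 and 13 had few UMIs. In untreated EGFP-high cells group 9 stood at 272 CPM (226.8 to 323), group 10 at 122 CPM (92.7 to 158) and group 11 at 122 CPM (92.7 to 158). Group 12 stood at 12.6 CPM (4.64 to 27.5) on 6 UMIs and group 13 at 2.11 CPM (0.0533 to 11.7) on 1 UMI. In other unpigmented cells groups 9, 10 and 11 stood at 122, 34.2 and 30.4 CPM. Group 12 stood at 5.49 CPM (2.93 to 9.39) there, below the EGFP-high cells, and group 13 at 15.6 CPM (11.0 to 21.6), above them. For both groups the intervals overlap those of EGFP-high cells, for group 13 only between 11.0 and 11.7 CPM. Overlap of separate intervals does not show equal levels, and no ratio was made for these groups. In the ErbBi library group 13 stood at 24.8 CPM on 1 UMI in EGFP-high cells and at 21.2 CPM in other unpigmented cells. Groups 12 and 13 are used last and nearest the tail tip.

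For central and anterior hox genes the ratio depended on the set of other cells. Groups 5 to 8 summed to 295 CPM in untreated EGFP-high cells and 172 CPM in all other cells, a ratio of 1.71 (1.43 to 2.04), with 6 of 6 rows above 1 and 0 past the size rule. Against the 330 CPM of other unpigmented cells the ratio was 0.894 (0.742 to 1.07). Groups 1 to 4 had ratios of 1.21 (1.01 to 1.44) and 0.962 (0.796 to 1.16) against the same sets. Of 9 of their rows 1 was higher and 0 were lower against all other cells, beside 0.88% and 2% of all genes. Within the pigment limits 0 of 9 were higher and 1 was lower, beside 0.79% and 3.55%. Against other unpigmented cells 0 of 7 were higher or lower, beside 0.442% and 3.32%. In the ErbBi library groups 5 to 8 stood at 447 CPM on 18 UMIs in EGFP-high cells, with a ratio of 8.41 (4.66 to 14.5) against all other cells. Against the 88.0 CPM of other unpigmented cells the ratio was 5.08 (2.66 to 9.46), so in that library these ratios were above those of the posterior groups, with overlapping intervals. The ErbBi intervals lie apart from the untreated ones, and the difference between the libraries was not tested.

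**Figure D2:**
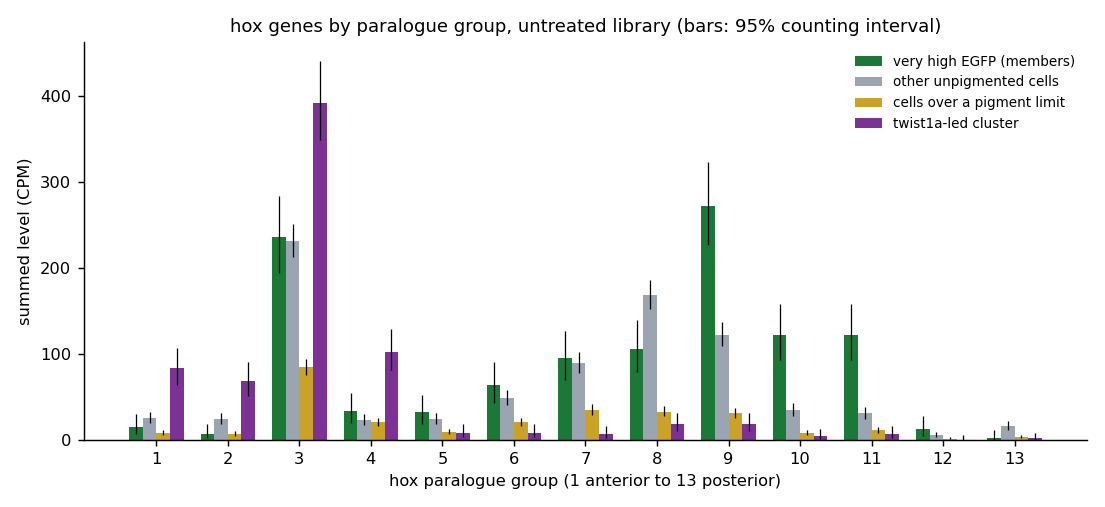
Summed level of all hox rows of each paralogue group (horizontal, 1 to 13) in CPM (vertical, linear from 0) in the untreated library, for EGFP-high cells, other unpigmented cells, cells over a pigment limit and the twist1a-led cluster, with 95% counting intervals. The green bars stand clear of the others in groups 9, 10 and 11 (272, 122 and 122 CPM). In groups 1 to 8 and 12 their intervals overlap those of at least 1 other set or they lie lower, and in group 13 they are nearly absent (2.11 CPM).

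Most untreated members carried these transcripts. At least 1 UMI of groups 9 to 13 was found in 52 of 61 untreated EGFP-high cells (85.2%) and in 7 of 15 ErbBi ones (46.7%), with a median of 3 UMIs and a maximum of 17 in the untreated cells. After each cell was thinned to 1900 UMIs the shares were 58.3% (44.9 to 70.9, 35 of 60) and 45.5% (16.7 to 76.6, 5 of 11). In other unpigmented cells the thinned shares were 22.7% (18.1 to 27.7) and 18.4% (10.9 to 28.1). Free RNA can give UMIs in cells that do not express a gene, and it was not measured here. The twist1a-led cluster had median depths of 9613 and 3297 UMIs and thinned shares of 5.26% (1.45 to 12.9) and 6.14% (2.50 to 12.2). The shares in EGFP-high cells lay above these in both libraries, with intervals that do not overlap and only 11 EGFP-high cells after ErbBi. What free RNA added to any of these shares was not tested.

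The given markers other than EGFP are hoxd9a, ved and itga9, and all 3 were higher in untreated EGFP-high cells than in all other cells. ved, a zebrafish homeobox repressor of dorsal fate downstream of BMP signalling, stood at 63.2 against 11.1 CPM, a ratio of 5.70 (3.60 to 8.81), and was 2.82 times higher than in other unpigmented cells. It had 4 UMIs in ErbBi members, with a ratio of 8.19 (1.95 to 26.5). itga9, which encodes an integrin alpha chain that binds matrix proteins, stood at 63.2 against 19.2 CPM, a ratio of 3.29 (2.13 to 4.92), and at 1.87 against other unpigmented cells. ErbBi EGFP-high cells held 0 itga9 UMIs, an interval of 0 to 91.5 CPM. These genes were given as markers from earlier views of the same data, so their levels describe the cells and test nothing. In the ErbBi library hoxd9a and ved had ratios whose intervals lay above 1 on too few UMIs for the size rule.

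Other genes higher in the untreated library are named here after their values were seen. Lower genes were more numerous there, 175 against 77, and are mostly described below by list or where lower in both libraries. Among the rest, TBX2 (ENSDARG00000018025) had log2 ratios from -4.38 to -1.20 over the alternative settings, which include the other sets of cells. Those of STC2 (ENSDARG00000056680) ran from -3.24 to -0.83. pim3, a serine/threonine kinase gene, had a ratio of 3.897 (3.09 to 4.88) against all other cells and 2.14 against other unpigmented cells. The homeobox gene msx3 had ratios of 3.58 (2.69 to 4.69) and 2.98, and msx2b, of the same family, ratios of 2.97 (2.05 to 4.22) and 2.52. crlf1a, of the cytokine receptor-like family, had ratios of 4.29 (2.71 to 6.61) and 2.49. ino80e, of a chromatin remodelling complex, had ratios of 3.03 (2.53 to 3.60) and 2.05, and POSTN (ENSDARG00000104267), a secreted matrix gene, 2.97 (2.05 to 4.22) and 1.96. Among ErbBi cells pim3 had a ratio of 2.72 (1.26 to 5.21) and msx3 one of 2.46 (0.870 to 5.64).

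**Figure D3:**
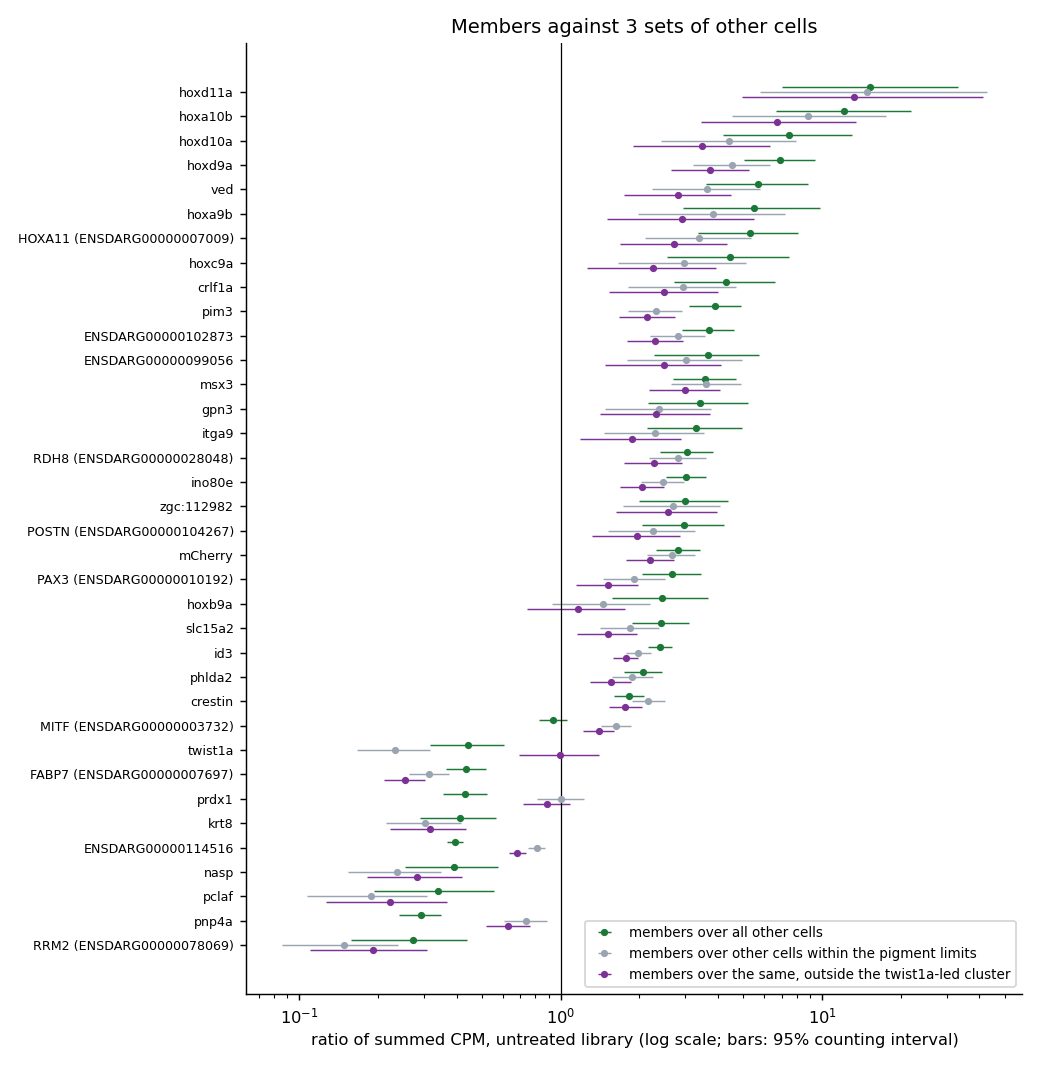
Ratio of summed CPM in untreated EGFP-high cells over 3 sets of other cells (horizontal, log scale, bars are 95% counting intervals). The named genes drawn are those higher in the untreated library or in both and those lower in both, with crestin and MITF for comparison. Genes lower in the untreated library alone are not drawn. Sorting is by the ratio over all other cells. The posterior hox genes drawn and the given marker ved lie to the right of 1 against each set. These hox genes were drawn because they had at least 10 UMIs in EGFP-high cells, so their side is a description. Rows with fewer, among them those of group 13, are not drawn. hoxb9a is least, with 1.16 over other unpigmented cells and an interval that holds 1. MITF goes from 0.938 to 1.63 with the set. twist1a has 0.443 over all other cells and 0.997 over other unpigmented cells. Its log2 ratio fell as low as -2.11 over the alternative settings, which include the second set of other cells.

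The MITF transcript (ENSDARG00000003732; the name table leaves its paralogue letter open) was not used by the rule, while EGFP, by the rule, was 14.9 times higher in untreated and 28.2 times higher in ErbBi EGFP-high cells than in all other cells. MITF stood at 594 against 633 CPM in the untreated library, a ratio of 0.938 (0.828 to 1.06), and at 744 against 289 CPM in the ErbBi library, a ratio of 2.58 (1.71 to 3.75). Against other unpigmented cells the ratios were 1.40 (1.22 to 1.60) and 2.64 (1.69 to 4.02). The untreated interval thus held 1 with pigmented cells among the others and lay above 1 against other unpigmented cells. A MITF UMI was found in 51 of 61 untreated EGFP-high cells and in 13 of 15 ErbBi ones. The intron row named mitfa_intron5 held 0 UMIs in EGFP-high cells.

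Neural crest genes went in both directions. Of 9 crest list rows compared in the untreated library, 5 were above 1, and 0 were higher and 0 lower than in all other cells by the size rule. The summed level was 1918 CPM against 1522 CPM, a ratio of 1.26 (1.18 to 1.35). Against other unpigmented cells the ratio was 1.13 (1.05 to 1.21), with 0 rows higher and 1 lower. Over all genes the shares higher and lower were 0.88% and 2% against all other cells and 0.442% and 3.32% against other unpigmented cells. crestin, a zebrafish neural crest transcript, stood at 529 against 290 CPM, a ratio of 1.82 (1.59 to 2.08), and at 422 against 159 CPM in the ErbBi library, a ratio of 2.65 (1.51 to 4.36). It was found in 58 of 61 untreated EGFP-high cells, and 59 of 61 had a crestin or an mCherry UMI. sox10, a transcription factor gene of migrating crest and its pigment and glial descendants, had ratios of 1.38 (1.20 to 1.59) and 2.02 (1.21 to 3.18). foxd3, a transcription factor of early crest that represses mitfa in zebrafish, went the other way. It stood at 92.7 against 154 CPM in the untreated library, a ratio of 0.601 (0.434 to 0.812), and was lower than in other unpigmented cells with a ratio of 0.317. foxd3 had 3 UMIs in ErbBi members and a ratio of 0.551.

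tfec, which encodes a relative of Mitfa and is needed for iridophores in zebrafish, stood at 48.4 against 14.6 CPM, a ratio of 3.31 (2.01 to 5.25), on 23 untreated UMIs in 16 of 61 cells. Against other unpigmented cells its ratio was 2.16. The ErbBi library had 1 tfec UMI in members. Its thinned share of cells was 15% (7.10 to 26.6) in untreated EGFP-high cells, 3.24% (1.56 to 5.87) in other unpigmented cells and 0% (0 to 4.74) in the twist1a-led cluster. pnp4a, a purine enzyme gene strongly used by iridophores, was lower than in all other cells with ratios of 0.291 (0.241 to 0.349) and 0.296 (0.119 to 0.614). Its untreated ratio over other unpigmented cells was 0.631.

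Pigment genes that the rule did not use were compared list by list. Of 9 pigment progenitor rows, MITF and tfec among them, 2 were above 1 against all other untreated cells. By the size rule 1 was higher and 1 was lower. The summed ratio was 0.691 (0.647 to 0.737), and 0.942 (0.879 to 1.01) against other unpigmented cells. In the latter comparison 0 of 9 rows were higher or lower, beside 0.442% and 3.32% of all genes. Of 9 melanoblast list rows 5 were lower in the untreated library and 0 were higher, with a median log2 ratio of -1.38. Over all genes compared with all other cells there, 2% were lower and 0.88% were higher. slc45a2, a melanosome transporter gene, stood at 240 against 826 CPM, a ratio of 0.291 (0.239 to 0.3498), and tyr, the tyrosinase gene, had a ratio of 0.288 (0.185 to 0.427). Against other unpigmented cells their ratios were 0.792 and 0.788, and 0 of 8 rows of the list were higher or lower. The summed melanoblast level turned from a ratio of 0.502 (0.462 to 0.545) to 1.08 (0.986 to 1.18) between these sets. Of 11 xanthoblast rows 1 was lower, slc22a7a, with a ratio of 0.291 (0.177 to 0.452), and 0 were higher. The iridoblast list, which includes pnp4a, had a summed ratio of 0.578 (0.522 to 0.638) against all other cells and 0.786 (0.706 to 0.872) against other unpigmented cells. For ErbBi cells the summed ratios against all other cells were 0.802 (0.584 to 1.07) for the melanoblast list, 0.907 (0.628 to 1.27) for the xanthoblast list and 0.422 (0.253 to 0.661) for the iridoblast list. The iridoblast ratio was 0.444 (0.264 to 0.704) against other unpigmented ErbBi cells. There the melanoblast ratio was 1.03 (0.742 to 1.40) and the xanthoblast ratio 1.04 (0.711 to 1.48). Against ErbBi cells within the pigment limits, the melanoblast ratio was 1.54 (1.11 to 2.08) and the xanthoblast ratio 1.55 (1.07 to 2.19). The iridoblast ratio was 0.603 (0.361 to 0.950) in that comparison. The rule caps melanin genes and gch2, so low levels of genes used with them are not independent of it.

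Cell cycle genes were low. All 21 rows of the list had ratios under 1 in the untreated library against all other cells, 5 of them past the size rule, and the summed level was 1242 against 2192 CPM, a ratio of 0.567 (0.521 to 0.616). Against other unpigmented cells 14 of 21 rows were lower and 0 were higher, with a median log2 ratio of -1.38 beside -0.01 for all genes compared. The percentages of all genes lower and higher in that comparison were 3.32% and 0.442%. The summed ratio was then 0.392 (0.360 to 0.427). In the ErbBi library the summed ratio was 0.475 (0.372 to 0.599) against all other cells and 0.492 (0.383 to 0.623) against other unpigmented cells, with 1 row lower in each.

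pcna, the sliding clamp of DNA replication, stood at 219 against 404 CPM in the untreated library, a ratio of 0.542 (0.441 to 0.659), and 0.389 against other unpigmented cells. cdk1, the kinase that drives mitosis, had a ratio of 0.394 (0.219 to 0.655), and rrm1, a subunit of the enzyme that makes deoxyribonucleotides, 0.351 (0.186 to 0.605). Genes of DNA synthesis were also among the 10 lower in both libraries. RRM2 (ENSDARG00000078069), the partner subunit, stood at 35.8 against 132 CPM in the untreated library, a ratio of 0.271 (0.157 to 0.436), and had 0 UMIs in ErbBi EGFP-high cells. The PCNA-binding factor gene pclaf had an untreated ratio of 0.338 (0.192 to 0.553) and the histone chaperone gene nasp one of 0.391 (0.254 to 0.577), both also with 0 UMIs in ErbBi EGFP-high cells. A pcna UMI was found, after thinning, in 16.7% of untreated EGFP-high cells (8.29 to 28.5) and 46.0% of other unpigmented cells (40.3 to 51.7), but in 54.5% (23.4 to 83.3) and 58.6% (47.6 to 69.1) in the ErbBi library.

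The other genes lower in both libraries were twist1a, krt8, FABP7 (ENSDARG00000007697), pnp4a, prdx1, ENSDARG00000114516 and sst2. sst2, a somatostatin gene, was found in too few other cells to pass the detection rule for named genes. FABP7, a fatty acid carrier of glia, had ratios of 0.435 (0.363 to 0.518) and 0.0864 (0.00218 to 0.485), and stayed low at 0.253 against untreated other unpigmented cells. krt8, an epithelial keratin gene, had ratios of 0.410 (0.290 to 0.564) and 0.157 (0.0189 to 0.570). twist1a had a ratio of 0.443 (0.316 to 0.604), which was 0.997 once the twist1a-led cluster was left out, and 1 cell held 15 of its 41 UMIs in members. prdx1, an antioxidant enzyme gene, had a ratio of 0.432 (0.354 to 0.522) against all other cells and 0.887 against other unpigmented cells.

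Markers of other tissues differed in level. Of 11 epidermis rows 8 were lower and 0 were higher in the untreated library, with summed levels of 198 CPM in EGFP-high and 672 CPM in all other cells. Over all genes of that comparison 2% were lower and 0.88% were higher. The neuron list summed to 404 CPM against 335 CPM, a ratio of 1.21 (1.03 to 1.40), with a UMI in 50 of 61 cells. Of its 9 rows 1 was above 1, the tubulin gene tubb5 at 362 against 247 CPM, and 0 were past the size rule. The mesenchyme list summed to 202 CPM in untreated EGFP-high cells and 371 CPM in all other cells, a ratio of 0.545 (0.440 to 0.668). In the ErbBi library it summed to 496 and 1587 CPM. Other untreated unpigmented cells, from which the twist1a-led cluster was left out, had 199.5 CPM. Of 11 tail bud and paraxial mesoderm rows 8 had 0 UMIs in untreated or ErbBi EGFP-high cells. The list summed to 4.21 CPM in untreated ones on 2 UMIs and to 11.5 CPM in all other untreated cells. That ratio of 0.365 (0.0435 to 1.36) has an interval that holds 1. The list was low in both sets, so these values cannot show whether EGFP-high cells lack tail bud markers. In untreated EGFP-high and all other cells the muscle list summed to 56.9 and 148 CPM. The notochord and floor plate list summed to 12.6 and 42.9 CPM and the endothelium and blood list to 52.6 and 463 CPM. The median cell of either set had 0 CPM of each of these lists, so the sums do not describe a typical cell. In the Schwann cell precursor and glia list FABP7 was the single row with 10 UMIs in members, and erbb3b, the ErbB receptor gene of crest cells, had a UMI in 4 of 61 untreated and 2 of 15 ErbBi EGFP-high cells.

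Against all other cells of the untreated library 0.88% of all genes were higher and 2% were lower. Of 12 rows of the BMP pathway and ventral homeobox list, ved and id3 were higher in the untreated library and 0 were lower. id1 had a ratio of 1.79 (1.66 to 1.93) against all other cells and 1.30 against other unpigmented cells, and msx1b 1.42 (1.25 to 1.61) and 1.76. Of 14 rows of the integrin and matrix list 2 were higher, itga9 and ITGB1 (ENSDARG00000104484), the second on 13 UMIs with a ratio of 3.63 (1.81 to 6.78). Within the pigment limits 0 of 11 rows were higher and 2 lower, beside 0.79% and 3.55% of all genes. Against other unpigmented cells 0 of 9 were higher and 2 lower, beside 0.442% and 3.32% of all genes. Of 7 rows compared from the fin list msx2b was higher and 2 rows were lower. Of 9 stress and immediate early rows 1 was lower, and their summed ratio of 0.669 (0.591 to 0.754) became 0.831 (0.729 to 0.943) against other unpigmented cells.

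Levels were followed over ranges of EGFP among untreated cells within the pigment limits, members and others together. Cells with no EGFP UMI, up to 0.03%, to 0.1%, to 0.3%, to 0.6% and above numbered 159, 107, 87, 57, 35 and 26, with median depths between 6173 and 9195 UMIs. The summed level of hox groups 9 to 13 was 83.0 CPM (66.0 to 103) without EGFP, 152 CPM, 202 CPM and 328 CPM in the next ranges, 495 CPM (419 to 582) at 0.3 to 0.6% and 591 CPM (483 to 716) above. The level was thus higher in each range than in the one before, though the intervals of the last pair overlap. These ranges include the twist1a-led cluster, which had 30.1 CPM of groups 9 to 13 against 208 CPM in other unpigmented cells. What that cluster adds to this order was not tested. Groups 5 to 8 stayed between 199 and 365 CPM with no such order.

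The cell cycle list had the opposite order. It stood at 4550 CPM (4418 to 4685) without EGFP, 4286, 2558 and 1734 CPM in the next ranges, 1405 CPM (1274 to 1546) at 0.3 to 0.6% and 966 CPM (826 to 1123) above. The mesenchyme list was highest in the 2 lowest ranges, with 1082 and 921 CPM there and 79.6 to 274 CPM in the other ranges. Its part in the order of the lower ranges was not tested. MITF, id3 and PAX3 differed from both. MITF stood at 228 CPM (199 to 260) without EGFP, 670 CPM (595 to 751) at 0.1 to 0.3% and 682 CPM (565 to 815) above 0.6%. id3 stood at 226, 1091 and 1046 CPM and PAX3 at 32.4, 214 and 114 CPM in the same ranges. These 3 were as high or higher just below the EGFP limit as above it. foxd3 was highest at 290 CPM (257 to 325) in cells with up to 0.03% EGFP and lowest at 68.2 CPM (35.2 to 119) above 0.6%. ErbBi ranges above 0.1% held 14 cells or fewer and were not followed.

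**Figure D4:**
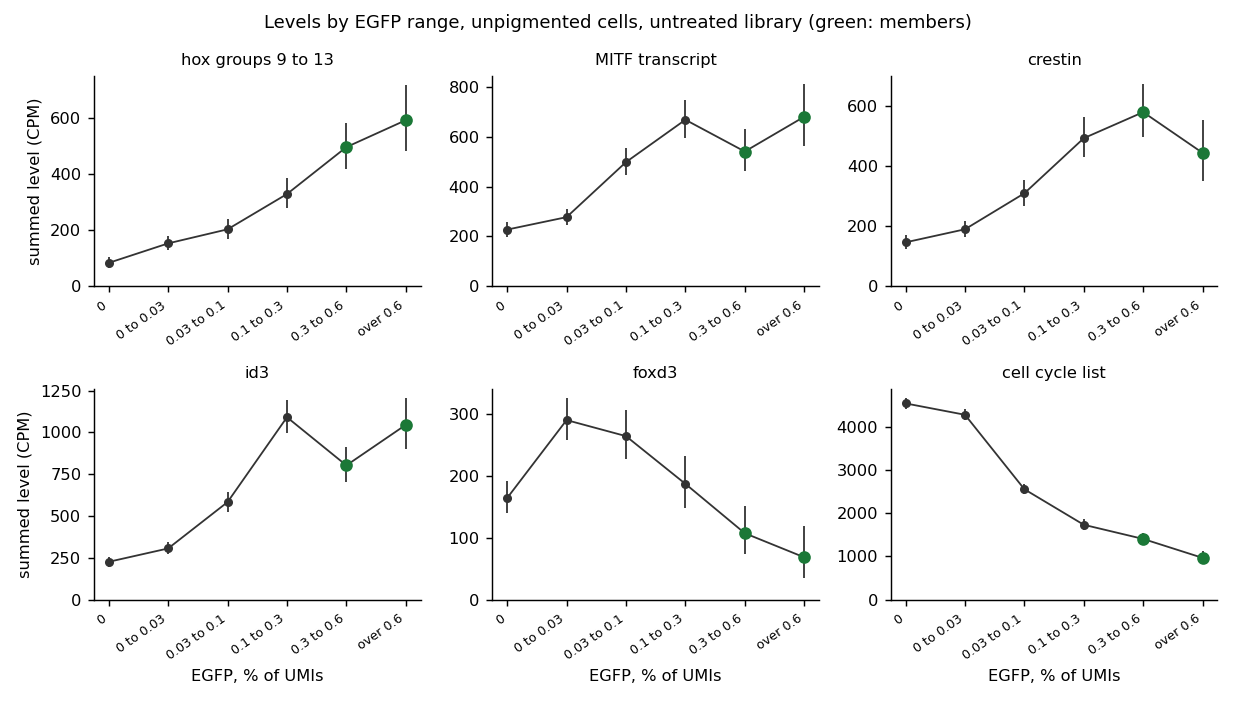
Summed level in CPM (vertical, linear from 0, bars are 95% counting intervals) in 6 ranges of EGFP percentage (horizontal) for untreated cells within the pigment limits, with the EGFP-high ranges in green. Posterior hox climbs to 591 CPM and the cell cycle list drops to 966 CPM in the highest range. MITF and id3 show no steady rise from 0.1% on. Cells of the twist1a-led cluster are included.

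EGFP-high cells did not form 1 cluster. Clustering on 2000 variable genes placed 47 of 61 untreated and 15 of 15 ErbBi members in cluster 6, where they were 49.0% and 50% of the cells. This cluster was led by EGFP, hoxd9a and ved, and clusters were made from the same genes, so what follows is a description. The other 14 untreated members were deeper, with a median of 11377.5 against 6233 UMIs, and less rich in EGFP, with a median of 0.401% against 0.623%. They had 266 CPM (195 to 353) of hox groups 9 to 13 against 688 CPM (597 to 789) in the 47, and 2079 CPM (1872 to 2303) of the cell cycle list against 745 CPM (650 to 850). Their MITF level was 576 CPM against 604 CPM. The 49 untreated cells of cluster 6 that were not members had a median of 0.113% EGFP, 339 CPM of hox groups 9 to 13 and 777 CPM of the cell cycle list. Against the 47 members of the cluster their posterior hox level was lower and their cell cycle level close. They had 72.5 CPM of ved against 73.9 CPM, 87.0 CPM of itga9 against 67.1 CPM and 244 CPM of pim3 against 252 CPM, each with overlapping intervals. Their id3 level was 1363 CPM (1242 to 1492) against 987 CPM (877 to 1106), and PAX3 stood at 209 CPM (163 to 263) against 117 CPM (81.8 to 163). In the same 49 cells tfec stood at 43.5 CPM (24.3 to 71.7) against 63.8 CPM (38.4 to 99.6). slc15a2 stood at 209 against 198 CPM and phlda2 at 409 against 363 CPM, also with overlapping intervals. hoxd9a was lower in them, at 78.3 CPM (51.6 to 114) against 171 CPM (127 to 225). In the ErbBi library posterior hox stood at 422 CPM (246 to 675) in the 15 members and 353 CPM (193 to 592) in the 15 other cells of the cluster. So several genes named here were as high in these neighbours, which the EGFP limit leaves out.

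Last, ErbBi and untreated EGFP-high cells were set side by side. Of 1984 genes, 14 were higher (0.706%) and 3 were lower (0.151%) in the 15 ErbBi cells, each with at least 50 CPM in a library. The 8 with the highest ratios included zgc:158463, at 204 CPM untreated and 1092 CPM after ErbBi, a ratio of 5.35 (3.66 to 7.71), and the BCL2-family gene bcl2l16, at 131 and 546 CPM, a ratio of 4.18 (2.45 to 6.90). In all other cells the same ratios were 6.14 (5.64 to 6.68) and 5.46 (4.91 to 6.07), so the library difference of these genes was found outside EGFP-high cells too. ENSDARG00000111040 had ratios of 5.89 (3.45 to 9.81) in members and 4.74 (4.18 to 5.37) in others.

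The ferritin heavy chain-like genes fthl29 and fthl30, of iron storage, had ratios of 4.50 (2.58 to 7.56) and 3.89 (2.88 to 5.19) in members and 2.18 and 2.47 in others. Near-identical paralogues of this family can share reads, and 1 ErbBi cell held 24 of 63 fthl30 UMIs. mphosph8, a chromatin silencing gene in mammals, had a ratio of 3.83 (1.88 to 7.31) in members on 13 UMIs and 1.31 (1.06 to 1.60) in others. srp14, of the signal recognition particle, had 4.18 (1.90 to 8.55) and 1.69 (1.42 to 2.01), and SYNGR1 (ENSDARG00000002564), of synaptic vesicles, 3.47 (1.53 to 7.17) and 1.39 (1.21 to 1.60). Over the alternative settings the log2 ratio in members ran from 1.08 to 2.02 for mphosph8 and from 1.47 to 3.40 for SYNGR1. Whether members and others differ in these ratios was not tested.

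The 3 lower genes were FABP7, prdx1 and ENSDARG00000114516. FABP7 had 1 UMI in ErbBi members, 24.8 against 274 CPM, a ratio of 0.0906 (0.00228 to 0.514) beside 0.456 in others. Over the alternative settings its log2 ratio ran from -3.58 to -0.82, the latter after thinning, so its size is poorly known. prdx1 had 110 UMIs in untreated members (232 CPM) and 0 in ErbBi members, which is 3.11-fold lower when 3 counts are set for 0. That value is a convention and not a bound, since the interval of 0 UMIs reaches 91.5 CPM there. Its log2 ratio ran from -2.17 to -0.77, the latter after thinning. ENSDARG00000114516 stood at 1651 and 397 CPM, a ratio of 0.240 (0.137 to 0.393) beside 0.424 (0.404 to 0.444) in others. All 3 were lower in ErbBi members and in ErbBi other cells alike in direction.

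**Figure D5:**
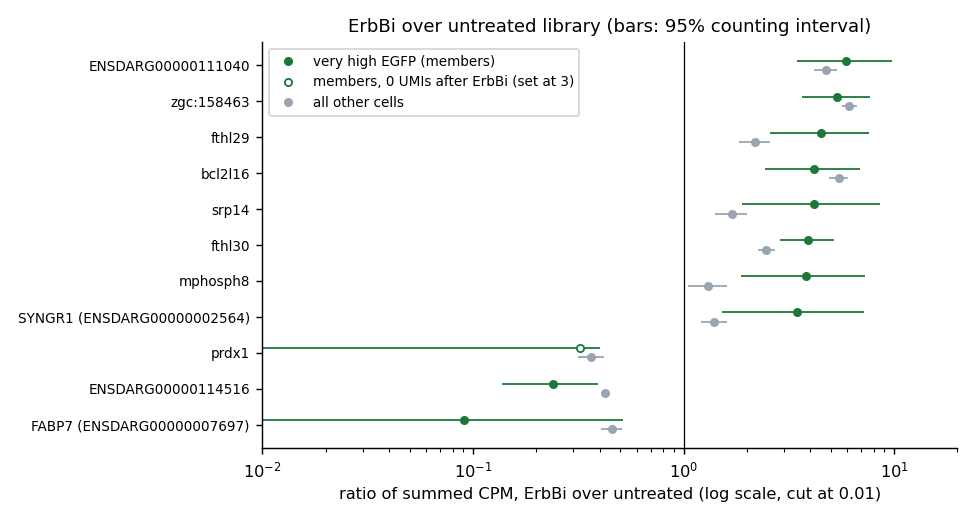
Ratio of summed CPM, ErbBi over untreated library (horizontal, log scale from 0.01), in EGFP-high cells (green) and in all other cells (grey) for the 11 named genes, with 95% counting intervals. The open point is prdx1, set at 3 counts for 0 UMIs, and all 11 genes lie on the same side of 1 in both sets of cells.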

How the data were processed

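Cells sorted for both reporters were profiled with the Chromium 3' kit, version 2, per the labels. The submitters' processing notes name Cell Ranger 2.1.1, FastQC 0.11.7 and GRCz11, without a role for each. The values the authors deposited are UMI counts per gene and cell, with all cells in one table and the cells that passed their filter in another. The filtered table holds 18723 rows and 1347 cells. The number that ends a cell's name was matched to the number that ends a sample's title. A name table gave symbols for 17967 of 18720 Ensembl rows (96.0%). Symbols in human style are printed with their ID. The number of per-sample columns not used was 0.

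UMIs were summed over cells within a library and divided by the total, since cells are not replicates and each treatment had 1 library. CPM have exact Poisson intervals, shares exact Clopper-Pearson intervals and ratios exact conditional binomial intervals. A sum of 0 was set at 3 counts in a ratio. Intervals cover counting error only. Shares of cells with a UMI were also computed after thinning each cell to 1900 UMIs. Leiden clustering (2000 variable genes, 20 components, 15 neighbours, resolution 1; scanpy 1.11.5, leidenalg 0.10.2) gave 11 clusters. Scrublet called 7 untreated and 2 ErbBi doublets, which stayed in. The ratio code was tested on simulated data.

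Genes were named where they passed the size rule in both libraries and were found in at least 25% of the cells where they are high (up to 15 a direction), where they passed it within members between libraries (up to 8 a direction, with 30 UMIs or more and a library at 50 CPM or more), or where they belonged to 1 of 24 gene lists with at least 10 UMIs in members. The members and lists were chosen with earlier results of these data known. Genes named for the untreated library alone were chosen after their values were seen. Alternatives covered the EGFP limit, the unfiltered table, doublets, thinning, scaling, weighting, count minimums and the set of other cells.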

Additional observations from a re-analysis of the deposited data

How the results depend on the processing

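No paired analysis was possible because 1 library stood for each treatment, which also left no replicate to leave out. The untreated share of EGFP-high cells (6.11%) was 8.01% at an EGFP limit of 0.2% and 3.50% at 0.5%, and the ErbBi share stayed between 3.74% and 5.46% over all alternatives. At a limit of 0.2%, 6 genes were lower in both libraries (10 in the main comparison) and 6 were lower after ErbBi (3). At 0.5%, 8 were higher after ErbBi (14). Thinning each cell to 1900 UMIs left 37 genes higher (77) and 62 lower (175) in the untreated library, 5 lower in both libraries and 3 higher after ErbBi. Fewer UMIs and cells enter that comparison by construction. Against other cells within the pigment limits 20 genes were lower in both libraries, and against other unpigmented cells, a set added after seeing the data, 28 were higher in the untreated library and 1 in both. For the other results and settings the cause was not tested.

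Of 1030 values of single genes and lists, 888 stayed within the main interval, 138 moved outside it and 4 turned. A change of sign was counted as a turn only for genes past the size rule and lists whose main interval excluded a ratio of 1. Genes short of the rule could change sign without being counted. MITF, for example, had untreated log2 ratios from -0.169 to 0.702. The untreated melanoblast list turned to a log2 ratio of 0.31 against other cells within the pigment limits and 0.11 against other unpigmented cells. In the latter set the mesenchyme list turned to 0.019, and in the former prdx1 turned to 0.0072. The posterior hox list kept an untreated log2 ratio between 1.35 and 2.68 and an ErbBi one between 1.45 and 2.43. The cell cycle list stayed between -1.55 and -0.59 in the untreated library. Leaving out the cell with the most UMIs of each gene moved HBE1 (ENSDARG00000087390) from a log2 ratio of -3.55 to -0.62. Averaging CPM over cells gives no counting interval, so no genes were counted under it. Requiring 10 EGFP UMIs per member, also added later, removed 1 ErbBi cell and kept the counts within 1.5 times. Depth is a limit for the 15 ErbBi members, where 0 of 40297 UMIs has an interval up to 91.5 CPM.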
